A study of Homo sapiens with 36 samples.

Results

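The lysosome and the autophagy pathway that feeds it were followed through 45 genes, chosen by name as lysosomal membrane proteins and regulators (8 genes), lysosomal hydrolases (10 genes), subunits of the vacuolar H+-ATPase, or V-ATPase (15 genes), and autophagy factors (12 genes). All 45 were found among the 58243 genes of the count table. The lysosome is the acidic compartment in which cells break down proteins, lipids and glycans; the V-ATPase pumps the protons that keep it acidic, and its hydrolases work at that low pH. In autophagy, a double membrane closes around cell material and carries it to the lysosome. Many genes of both systems are known targets of TFEB and TFE3, transcription factors that bind the sequence CACGTG, and pancreatic ductal adenocarcinoma is known for a high use of autophagy.

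RNA was sequenced from 3 human pancreatic ductal adenocarcinoma cell lines, namely PANC-1, BxPC-3 and MIA PaCa-2. Each was treated for 48 h with GW3965, 1E5 or 3A4, all at 10 µM, or with the vehicle DMSO, with 3 libraries in each of the 12 groups. GW3965 is an agonist of the liver X receptors (LXR), nuclear receptors that switch on cholesterol efflux and lipid synthesis genes; the labels call 1E5 and 3A4 inverse agonists of LXR. The medium was RPMI 1640 for BxPC-3 and DMEM for PANC-1 and MIA PaCa-2, so a difference between BxPC-3 and either other line cannot be told apart from one of medium. The labels call the 3 libraries of a group biological replicates but do not mention separate cultures, and each p-value therefore reflects only how far these libraries spread, which may be technical. In bulk RNA, fewer cells of a kind and less RNA per cell cannot be told apart.

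Library totals were 19605935 to 25888304 counts in BxPC-3, 14960970 to 26026684 in PANC-1 and 2701393 to 25503827 in MIA PaCa-2, where the 3 DMSO libraries held 3609582 to 10996848 counts and the 3 1E5 libraries 23675670 to 25503827. The share of counts from mitochondrial genes was 0.997% ± 0.437 in MIA PaCa-2 with 1E5, against 5.92% ± 0.266 with DMSO, and 2.54% ± 0.972 in PANC-1 with 1E5, against 6.04% ± 0.632 with DMSO (SD, n = 3 each). The summed level of 6 ductal epithelial markers was 539.7 to 606.7 CPM (counts scaled to a common library size) in MIA PaCa-2 with 1E5, against 1364 to 1688 with DMSO, and 767.8 to 952.3 in PANC-1 with 1E5, against 3260 to 5097 with DMSO; EPCAM was at 0 in the MIA PaCa-2 libraries with GW3965, 3A4 and DMSO. The sum of 5 fibroblast and endothelium markers was 9.18 to 28.5 CPM in MIA PaCa-2 with 1E5, against 271.4 to 278.8 with DMSO, and 4.93 to 16.8 CPM in PANC-1 with 1E5, against 53.9 to 179.9 with DMSO; PECAM1 was at 0 in all of these groups, and COL1A2 in PANC-1 with 1E5. The sum of 3 mesenchymal markers overlapped between 1E5 and DMSO in both lines, at 6302 to 8391 CPM in MIA PaCa-2 with 1E5, against 8099 to 10510 with DMSO, and 2736 to 5971 CPM in PANC-1 with 1E5, against 2860 to 3598 with DMSO; CDH2 was at 0 in MIA PaCa-2. The part of mitochondrial share and these markers in the results below was not tested. Depth was addressed only by a refit within each line on counts thinned to its smallest library, which is among the refits below. In PANC-1, replicate 2 with 1E5 stood apart from the other 1E5 libraries in several members, and the calls that change without it are given with the refits below.

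Among the 45 genes, 35 had a RefSeq promoter sequence (GRCh38.p14); LAMP2, LAMP3, CTSB, HEXA, ATP6V0D2, ATP6V0E1, ATP6V1A, ATP6V1B2, ATP6V1C1 and ATP6V1H had none in the table. CACGTG, the E-box bound by TFEB and TFE3, lay within 250 bases before the start of 9 of the 35 (25.7%), against 6.49% of all 27305 promoters. Because the motif reads the same on both strands, one search covers both. The longer form known as the CLEAR element, CACGTG preceded by GT and followed by AC, was present in 2 of 35 (ATP6V1G1 and MCOLN1, 5.71%), against 0.33% of all promoters, and every such match also holds a CACGTG. The sequences below, printed 5′ to 3′ on the gene's own strand from RefSeq with CACGTG in capitals, show part of 6 member promoters with a match, and of SQSTM1 and WIPI1, which had no match in the 250 bases and whose genes rose with 1E5; 200 bases are printed for LAMP1 and 120 for each of the others.

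MCOLN1 (chr19:7522504-7522623, plus strand): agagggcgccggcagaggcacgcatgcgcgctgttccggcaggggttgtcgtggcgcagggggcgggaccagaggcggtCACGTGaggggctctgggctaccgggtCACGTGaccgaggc
LAMP1 (chr13:113297039-113297238, plus strand): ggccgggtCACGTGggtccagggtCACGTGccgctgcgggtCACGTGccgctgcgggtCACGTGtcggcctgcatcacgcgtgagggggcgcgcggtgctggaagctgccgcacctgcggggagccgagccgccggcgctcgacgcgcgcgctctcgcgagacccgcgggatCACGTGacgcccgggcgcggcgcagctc
CTSA (chr20:45891215-45891334, plus strand): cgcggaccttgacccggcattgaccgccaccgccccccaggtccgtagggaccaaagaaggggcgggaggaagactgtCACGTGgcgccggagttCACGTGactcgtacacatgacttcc
CTSD (chr11:1763928-1764047, minus strand): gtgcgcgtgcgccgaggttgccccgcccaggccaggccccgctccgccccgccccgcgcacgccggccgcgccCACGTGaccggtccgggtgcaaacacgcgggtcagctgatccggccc
ATP6V0B (chr1:43974840-43974959, plus strand): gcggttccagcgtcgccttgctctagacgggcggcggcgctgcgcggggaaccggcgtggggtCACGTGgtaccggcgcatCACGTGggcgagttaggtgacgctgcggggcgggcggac
ATP6V0D1 (chr16:67481158-67481277, minus strand): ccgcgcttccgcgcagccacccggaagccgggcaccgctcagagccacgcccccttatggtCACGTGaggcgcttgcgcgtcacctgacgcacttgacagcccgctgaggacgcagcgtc
SQSTM1 (chr5:179806273-179806392, plus strand): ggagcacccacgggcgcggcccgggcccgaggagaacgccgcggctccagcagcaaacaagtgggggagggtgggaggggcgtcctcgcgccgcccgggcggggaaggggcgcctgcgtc
WIPI1 (chr17:68457497-68457616, minus strand): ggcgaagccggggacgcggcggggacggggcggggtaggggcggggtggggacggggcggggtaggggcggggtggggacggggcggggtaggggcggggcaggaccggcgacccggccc

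In the whole 250 bases LAMP1 carried 5 matches, MCOLN1, CTSA and ATP6V0B 2 each, and CTSD and ATP6V0D1 1 each. The amino acid response element TGATGCAA was found on neither strand of any of the 35 promoters (0.82% of all promoters held it), nor was the LXR motif, AGGTCA repeated after a gap of 4 bases (0.0146% of all promoters). A match is only a match of letters, and a missing one says only that these letters are not in this window.

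The first question was what each ligand did to these genes within each line. The inverse agonist 1E5 changed 27 of 45 members in MIA PaCa-2, 19 higher and 8 lower, and 22 of 45 in PANC-1, 17 higher and 5 lower, but 0 of the 44 members tested in BxPC-3. A member is said to have risen or fallen where edgeR's quasi-likelihood test, adjusted over all genes of the line by Benjamini-Hochberg, gave p below 0.05. Of all genes tested, 47% passed with 1E5 in MIA PaCa-2 (23.6% higher, 23.4% lower), 39.1% in PANC-1 (19.7% higher, 19.3% lower) and 0% in BxPC-3 and the members' counts are to be read against these shares. The median log2 fold change of the members was 0.22 in MIA PaCa-2, against 0.05 for all genes, and 0.29 in PANC-1, against 0.02 for all genes; members at 0 counts with DMSO lie above these medians also at the bounds given below. The 1E5 and 3A4 comparisons share their DMSO libraries.

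With 3A4, 10 of 45 members changed in MIA PaCa-2 (7 higher, 3 lower, where 13.8% of all genes passed, 7.3% higher and 6.45% lower), 8 of 45 in PANC-1 (6 higher, 2 lower, where 7.37% passed, 3.53% higher and 3.84% lower) and 0 of 44 in BxPC-3 (where 0.0333% passed). With GW3965, 1 of 44 members changed in BxPC-3, where it was lower (1.32% of all genes passed, 0.848% lower), 0 of 45 in MIA PaCa-2 (0.523%) and 0 of 45 in PANC-1 (0.0485%). At an unadjusted p under 0.05, edgeR gave 10 of 45 members with GW3965 in MIA PaCa-2 (22.2%, against 8.74% of all genes) and 6 of 45 in PANC-1 (13.3%, against 4.48%). LAMP3, MAP1LC3B and ATG7 were among both and higher in both lines. ULK1 was also among both, but lower in MIA PaCa-2 (log2 fold change -0.46) and higher in PANC-1 (0.39). In BxPC-3 edgeR gave 3 of 44 with 1E5 (6.82%, against 3.17%) and 8 of 44 with 3A4 (18.2%, against 12.7%). DESeq2 called 4, 1, 0 and 1 members in the same 4 comparisons, and limma-voom 0 in each of them. With GW3965 in BxPC-3 the unadjusted share of members was below that of all genes, at 4 of 44 (9.09%, against 12.1%). In BxPC-3, the 95% interval of the 1E5 log2 fold change lay within -1 and 1 for 42 of 44 members.

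**Figure D1:**
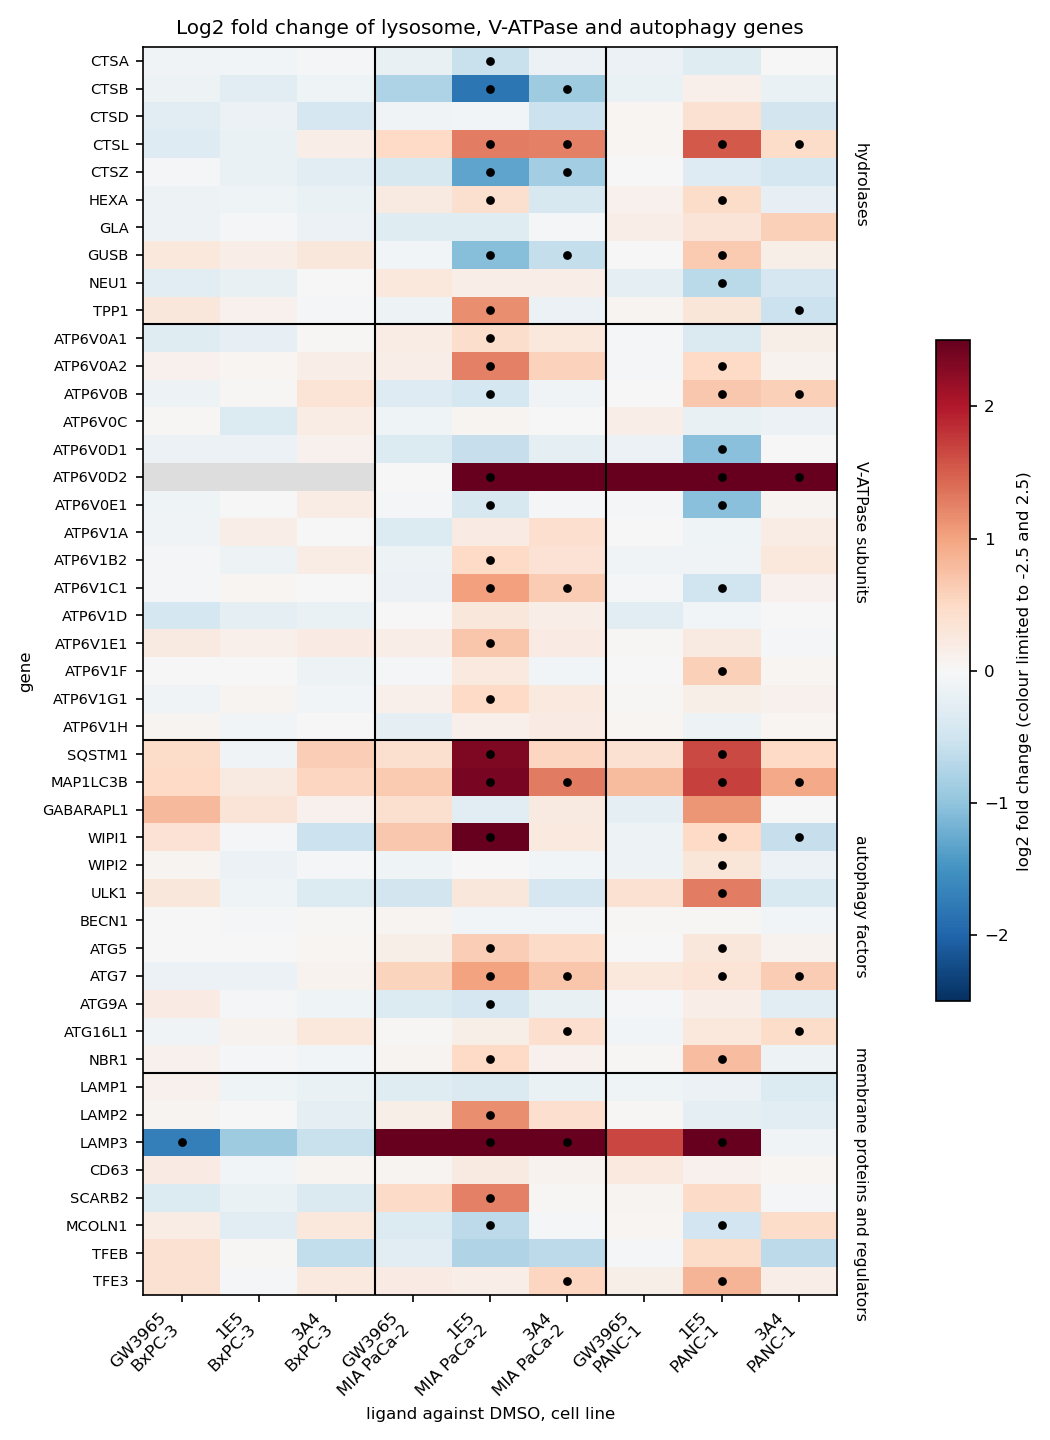
Log2 fold change of each of the 45 genes (rows, grouped by role) for each ligand against DMSO in each line (columns); colour runs from lower to higher and is limited at 2.5 on either side, a dot marks a gene that passed the test, and grey marks a gene not tested; the darkest red cells of ATP6V0D2 and LAMP3 in MIA PaCa-2, and of ATP6V0D2 in PANC-1, are set against DMSO libraries at 0. The 1E5 columns of MIA PaCa-2 and PANC-1 hold 27 and 22 dots, and the 1E5 column of BxPC-3 holds 0.

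Of the 8 membrane proteins and regulators, 3 rose and 1 fell with 1E5 in MIA PaCa-2, and 2 rose and 1 fell in PANC-1. Of all genes, 23.6% rose and 23.4% fell in MIA PaCa-2, and 19.7% rose and 19.3% fell in PANC-1. LAMP3, a lysosome-associated membrane protein known from dendritic cells (gene at chr3:183122213-183163839, minus strand, GRCh38), was among the genes that rose in both lines. It had 33.9, 35.6 and 28.6 CPM in MIA PaCa-2 with 1E5, against 0 counts in all 3 DMSO libraries. The 1E5 level was at least 219.7-fold higher than 3 counts over the DMSO group would give (adjusted p = 1.35e-05, edgeR). With the other ligands LAMP3 stayed far below its 1E5 level in this line, at 1.26, 1.18 and 1.25 CPM with 3A4 and 0, 2.41 and 2.30 CPM with GW3965. With 3A4 it was still called higher than with DMSO, at least 8.27-fold above the same floor. That call was lost without 3A4 replicate 2 and without DMSO replicate 2. With GW3965 LAMP3 was not called in this line.

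In PANC-1, LAMP3 stood at 125.8, 85.0 and 120.1 CPM with 1E5, against 6.41, 17.2 and 6.87 CPM with DMSO. The lowest 1E5 library was far above the highest DMSO library, and the log2 fold change was 3.44 (SE 0.40, adjusted p = 6.27e-05, edgeR). With 3A4 it had 8.99, 9.59 and 10.3 CPM in PANC-1, a range inside that of the DMSO libraries. In BxPC-3, LAMP3 fell with GW3965 to 6.20, 6.34 and 4.44 CPM, against 25.5, 17.6 and 12.8 CPM with DMSO (log2 fold change -1.72, SE 0.27, adjusted p = 0.0115, edgeR). This was the one member called with GW3965 in any line. The call was lost without GW3965 replicate 3 and in a fit of the compared groups only. With 1E5 in BxPC-3, LAMP3 had 10.6, 11.8 and 7.86 CPM, below every DMSO library, but was not called (log2 fold change -0.88). Of 8 leukocyte, macrophage and dendritic cell markers, PTPRC, CD163 and CD1C were at 0 in the 1E5 libraries of both MIA PaCa-2 and PANC-1, and their sum was 5.61 to 7.06 CPM in MIA PaCa-2 with 1E5, against 22.1 to 31.0 with DMSO, and 10.7 to 12.7 CPM in PANC-1 with 1E5, against 12.4 to 14.95 with DMSO.

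LAMP2, a main lysosomal membrane glycoprotein and the receptor of chaperone-mediated autophagy, differed between the lines. In MIA PaCa-2 it had 254.9, 255.1 and 255.2 CPM with 1E5, against 114.6, 117.7 and 107.9 CPM with DMSO (log2 fold change 1.17, SE 0.15, adjusted p = 4.6e-05, edgeR). In PANC-1 it had 406.1, 580.7 and 414.9 CPM with 1E5, against 516.7, 587.0 and 524.2 CPM with DMSO, and the groups overlapped. SCARB2, the receptor that carries beta-glucocerebrosidase to the lysosome, rose in MIA PaCa-2 to 208.5, 113.8 and 181.8 CPM with 1E5, against 83.7, 77.8 and 48.2 CPM with DMSO (log2 fold change 1.26).

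LAMP1, the partner of LAMP2 in the lysosomal membrane, passed the test in no ligand comparison. It had 163.6, 166.1 and 141.8 CPM with 1E5 in MIA PaCa-2, against 263.8, 178.1 and 159.6 CPM with DMSO, and 241.7, 275.8 and 198.0 CPM with 1E5 in PANC-1, against 280.7, 258.6 and 253.2 CPM with DMSO. The groups overlapped in both lines. CD63, a tetraspanin of late endosomes and lysosomes, was not called with any ligand either.

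MCOLN1, the calcium channel of the lysosome, fell with 1E5 in both lines. It had 12.1, 14.7 and 13.0 CPM in MIA PaCa-2 with 1E5, against 18.4, 17.0 and 27.9 CPM with DMSO (log2 fold change -0.65, SE 0.25, adjusted p = 0.0483, edgeR). In PANC-1 it had 10.96, 8.21 and 9.83 CPM with 1E5, against 13.1, 13.5 and 13.6 CPM with DMSO (log2 fold change -0.47, SE 0.14, adjusted p = 0.0167, edgeR). All 3 1E5 libraries lay below all 3 DMSO libraries in each line, but the MIA PaCa-2 call was kept in 4 of 14 refits. MCOLN1 also overlaps PNPLA6 on the same strand, whose summed counts with a second overlapping gene were 604% of its own, so its level is uncertain.

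TFEB, the regulator named above, was low in every line. It had 2.03, 2.08 and 6.41 CPM with 1E5 in MIA PaCa-2, against 7.57, 4.66 and 5.51 CPM with DMSO. In PANC-1 it had 10.0, 15.4 and 9.83 CPM with 1E5, against 9.13, 9.21 and 7.26 CPM with DMSO. In BxPC-3 it had 1.99, 2.69 and 1.98 CPM with 1E5, against 1.88, 3.16 and 1.46 CPM with DMSO. TFEB was called against DMSO in no line. TFE3 rose with 1E5 in PANC-1, to 127.1, 183.1 and 126.7 CPM, against 83.5, 80.6 and 78.1 CPM with DMSO (log2 fold change 0.85, SE 0.15, adjusted p = 0.00104, edgeR). It rose with 3A4 in MIA PaCa-2, to 124.6, 112.6 and 121.2 CPM, against 86.1, 93.8 and 65.9 CPM with DMSO (log2 fold change 0.54, SE 0.15, adjusted p = 0.037, edgeR), a call kept in 8 of 15 refits.

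The 10 hydrolases moved in both directions. With 1E5, 23.6% of all genes rose and 23.4% fell in MIA PaCa-2, and 19.7% rose and 19.3% fell in PANC-1. In MIA PaCa-2, 3 rose with 1E5 (CTSL, HEXA and TPP1) and 4 fell (CTSA, CTSB, CTSZ and GUSB), and in PANC-1 3 rose (CTSL, HEXA and GUSB) and 1 fell (NEU1). CTSL, the cysteine protease cathepsin L (chr9:87725519-87731393, plus strand, GRCh38), rose with both inverse agonists in both lines. In MIA PaCa-2 it had 518.2, 522.8 and 470.9 CPM with 1E5 and 534.8, 419.2 and 521.2 CPM with 3A4, against 203.5, 193.5 and 221.9 CPM with DMSO. The 6 libraries of the inverse agonists lay above the DMSO libraries, and the log2 fold changes were 1.29 (SE 0.12, adjusted p = 7.18e-06) with 1E5 and 1.25 (SE 0.12, adjusted p = 3.39e-04) with 3A4 in edgeR.

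In PANC-1, CTSL had 125.9, 127.5 and 116.9 CPM with 1E5 and 61.4, 57.0 and 58.0 CPM with 3A4, against 49.5, 40.3 and 38.9 CPM with DMSO. The log2 fold change was 1.53 (SE 0.11, adjusted p = 2.22e-06, edgeR) with 1E5 and 0.46 (SE 0.11, adjusted p = 0.0264, edgeR) with 3A4. In BxPC-3 it averaged 115 ± 8.13 CPM with 1E5 and 129 ± 13.3 CPM with DMSO (SD, n = 3 each) and was not called.

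CTSB, cathepsin B, and CTSZ, cathepsin Z, went the other way in MIA PaCa-2. CTSB had 158.6, 101.2 and 164.6 CPM with 1E5 and 297.4, 227.9 and 273.2 CPM with 3A4, against 426.2, 482.7 and 575.3 CPM with DMSO. The 3 groups did not overlap, and the log2 fold changes were -1.81 (SE 0.20, adjusted p = 1.74e-05) with 1E5 and -0.89 (SE 0.19, adjusted p = 0.0123) with 3A4 in edgeR. In PANC-1, CTSB had 221.1, 459.5 and 203.3 CPM with 1E5, where replicate 2 was the high one, against 287.9, 254.3 and 266.0 CPM with DMSO. CTSZ had 162.9, 162.0 and 123.2 CPM with 1E5 and 242.9, 165.5 and 210.1 CPM with 3A4 in MIA PaCa-2, against 346.2, 418.7 and 358.6 CPM with DMSO (log2 fold change -1.33 with 1E5 and -0.86 with 3A4). CTSA, the protective protein of the sialidase NEU1, fell with 1E5 in MIA PaCa-2 to 153 ± 12.4 CPM, against 226 ± 5.04 CPM with DMSO (SD, n = 3 each; log2 fold change -0.56).

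TPP1, a tripeptidyl peptidase, rose with 1E5 in MIA PaCa-2 to 192.1, 243.1 and 177.0 CPM, against 109.1, 88.1 and 75.7 CPM with DMSO (log2 fold change 1.16, SE 0.19, adjusted p = 3.89e-04, edgeR). In PANC-1, TPP1 fell with 3A4 to 250.7, 277.8 and 250.6 CPM, against 383.1, 394.6 and 359.2 CPM with DMSO (log2 fold change -0.55, SE 0.13, adjusted p = 0.0276, edgeR). HEXA, the alpha subunit of beta-hexosaminidase, rose with 1E5 in MIA PaCa-2 (log2 fold change 0.41, adjusted p = 0.0184, edgeR) and PANC-1 (0.47, adjusted p = 0.0257, edgeR), calls kept in 11 and 10 of 14 refits. The MIA PaCa-2 call was lost without 1E5 replicate 1 (0.39), 1E5 replicate 2 (0.36) or DMSO replicate 1 (0.38), and the PANC-1 call without 1E5 replicate 2 (0.31), DMSO replicate 2 (0.44) or DMSO replicate 3 (0.37). NEU1 fell with 1E5 in PANC-1 to 46.1, 43.7 and 38.2 CPM, against 60.9, 49.5 and 93.5 CPM with DMSO (log2 fold change -0.67, SE 0.19, adjusted p = 0.0169, edgeR), with DMSO replicate 3 far above the others. The call was lost without that library (log2 fold change -0.37, adjusted p = 0.065, edgeR) and without 1E5 replicate 3 (-0.60), and was kept in 11 of 14 refits.

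GUSB, beta-glucuronidase, moved in opposite directions. It fell with 1E5 in MIA PaCa-2 to 33.4, 42.5 and 42.7 CPM, against 83.4, 79.2 and 85.3 CPM with DMSO (log2 fold change -1.06, SE 0.17, adjusted p = 3.01e-04, edgeR). It rose in PANC-1 to 44.7, 65.9 and 46.9 CPM with 1E5, against 35.6, 32.5 and 31.8 CPM with DMSO (log2 fold change 0.66, SE 0.16, adjusted p = 0.00618, edgeR). GUSB pseudogenes held counts equal to 78.3% of those of GUSB, so its level is uncertain. GUSB also fell with 3A4 in MIA PaCa-2 (log2 fold change -0.60).

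CTSD, cathepsin D, was called against DMSO in no line. It had 2379, 2574 and 1671 CPM in PANC-1 with 1E5, against 1712, 1695 and 1704 CPM with DMSO, and 276.6, 390.7 and 423.6 CPM in MIA PaCa-2 with 1E5, against 377.0, 352.9 and 414.3 CPM with DMSO. The groups overlapped in both. GLA, alpha-galactosidase A, was called with no ligand.

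Of the 15 V-ATPase subunits, 7 rose and 2 fell with 1E5 in MIA PaCa-2, and 4 rose and 3 fell in PANC-1. Of all genes, 23.6% rose and 23.4% fell in MIA PaCa-2, and 19.7% rose and 19.3% fell in PANC-1. The members named V0 belong to the membrane sector through which protons pass, and those named V1 to the cytoplasmic sector that hydrolyses ATP. ATP6V0D2, an isoform of subunit d known from osteoclasts, rose in both lines. It had 11.4, 16.1 and 12.5 CPM in MIA PaCa-2 with 1E5, against 0 counts in all DMSO libraries, and 14.5, 4.79 and 11.7 CPM in PANC-1 with 1E5, again against 0 counts in all DMSO libraries.

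The 1E5 level of ATP6V0D2 was at least 89.6-fold higher in MIA PaCa-2 and at least 243.6-fold higher in PANC-1 than 3 counts over the DMSO group would give (adjusted p = 1.34e-04 and 1.18e-04, edgeR). In both lines the gene passed the filter on low counts only through its 1E5 libraries, so its tests rest on that group. In BxPC-3 it was not tested. With 3A4 it had 0.361, 0.509 and 0.383 CPM in PANC-1, at least 9.84-fold higher than that floor, a call kept in 4 of 13 refits. In MIA PaCa-2 it had 0, 0.163 and 0.521 CPM with 3A4 and was not called. The osteoclast markers DCSTAMP and OCSTAMP were at 0 in all libraries of MIA PaCa-2 and PANC-1. The sum of 4 osteoclast markers was 7.998 to 13.6 CPM in MIA PaCa-2 with 1E5, against 5.51 to 9.01 with DMSO, and 4.26 to 5.68 CPM in PANC-1 with 1E5, against 3.49 to 5.56 with DMSO.

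The other isoform of subunit d, ATP6V0D1, fell in PANC-1 to 33.7, 22.3 and 25.2 CPM with 1E5, against 65.3, 47.3 and 55.01 CPM with DMSO (log2 fold change -1.05, SE 0.18, adjusted p = 8.5e-04, edgeR). In MIA PaCa-2 it was not called, at 76.5, 78.4 and 47.0 CPM with 1E5, against 111.7, 100.9 and 89.1 CPM with DMSO (log2 fold change -0.58). Those groups did not overlap, and the difference in response between MIA PaCa-2 and PANC-1 did not pass its test below. ATP6V0E1, a small membrane subunit, fell in PANC-1 to 107.6, 113.1 and 93.1 CPM with 1E5, against 243.3, 195.7 and 205.9 CPM with DMSO (log2 fold change -1.04, SE 0.11, adjusted p = 4.5e-05, edgeR), and in MIA PaCa-2 by less (log2 fold change -0.40, SE 0.14, adjusted p = 0.0353, edgeR). ATP6V0A2, an isoform of subunit a, rose in MIA PaCa-2 to 40.8, 37.8 and 31.2 CPM with 1E5, against 18.8, 14.5 and 12.2 CPM with DMSO (log2 fold change 1.26), and in PANC-1 to 59.0, 40.4 and 50.5 CPM, against 38.7, 33.9 and 33.4 CPM with DMSO (0.50).

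ATP6V1C1, a subunit of the stalk, moved in opposite directions. It rose with 1E5 in MIA PaCa-2 to 137.6, 132.3 and 104.3 CPM, against 58.4, 70.1 and 54.3 CPM with DMSO (log2 fold change 1.03, SE 0.20, adjusted p = 9.5e-04, edgeR), and fell in PANC-1 to 127.2, 89.8 and 120.2 CPM, against 151.8, 158.3 and 164.6 CPM with DMSO (log2 fold change -0.49, SE 0.12, adjusted p = 0.00757, edgeR). ATP6V0B, a subunit of the proteolipid ring, fell in MIA PaCa-2 (log2 fold change -0.44) to 52.3, 57.3 and 51.0 CPM with 1E5, against 78.1, 65.7 and 74.6 CPM with DMSO, and rose in PANC-1 (0.67) to 95.2, 66.8 and 69.8 CPM with 1E5, against 50.8, 45.9 and 48.8 CPM with DMSO. The remaining calls with 1E5 in MIA PaCa-2 were ATP6V0A1, ATP6V1B2, ATP6V1E1 and ATP6V1G1, all higher by 0.44 to 0.69 on the log2 scale, and in PANC-1 ATP6V1F, higher by 0.60.

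With 3A4, ATP6V1C1 rose in MIA PaCa-2 (log2 fold change 0.64) to 85.8, 108.7 and 90.3 CPM, against the DMSO levels above, and ATP6V0B rose in PANC-1 (0.59) to 67.0, 72.3 and 80.0 CPM. The V-ATPase subunits ATP6V0C, ATP6V1A, ATP6V1D and ATP6V1H were called with no ligand in any line.

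The autophagy factors were called higher more often than lower with 1E5. Among all genes, 23.6% rose and 23.4% fell in MIA PaCa-2, and 19.7% rose and 19.3% fell in PANC-1. In MIA PaCa-2, 6 of 12 rose and 1 fell (ATG9A, the lipid scramblase of the growing autophagosome), and in PANC-1 8 of 12 rose and 0 fell. The 8 were SQSTM1, MAP1LC3B, WIPI1, WIPI2, ULK1, ATG5, ATG7 and NBR1, and the 6 in MIA PaCa-2 were the same without WIPI2 and ULK1.

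SQSTM1, also called p62, is the receptor that ties ubiquitin-marked cargo to the autophagosome (chr5:179806398-179838078, plus strand, GRCh38). It had 1154, 2019 and 2549 CPM in MIA PaCa-2 with 1E5, against 384.9, 347.8 and 407.6 CPM with DMSO (log2 fold change 2.33, SE 0.22, adjusted p = 7.18e-06, edgeR). In PANC-1 it had 3474, 3549 and 3355 CPM with 1E5, against 1248, 929.9 and 1124 CPM with DMSO (log2 fold change 1.65, SE 0.15, adjusted p = 1e-05, edgeR). The groups did not overlap in either line. In BxPC-3, SQSTM1 had 489.4, 368.9 and 411.8 CPM with 1E5, against 423.3, 390.8 and 531.1 CPM with DMSO, and the 95% interval of the log2 fold change was -0.40 to 0.23.

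MAP1LC3B encodes LC3B, the protein that coats the autophagosome membrane and binds such receptors (chr16:87383995-87404779, plus strand, GRCh38). It had 389.8, 501.2 and 423.2 CPM with 1E5 and 147.1, 263.6 and 210.4 CPM with 3A4 in MIA PaCa-2, against 72.8, 99.0 and 81.2 CPM with DMSO. In PANC-1 it had 335.7, 167.0 and 277.8 CPM with 1E5 and 158.1, 157.8 and 147.2 CPM with 3A4, against 77.6, 89.6 and 72.3 CPM with DMSO. Both inverse agonists stood above DMSO in every library of both lines, with log2 fold changes of 2.37 (SE 0.24) and 1.295 (SE 0.23) in MIA PaCa-2 and 1.70 (SE 0.25) and 0.95 (SE 0.25) in PANC-1. The adjusted p-values in edgeR were 8.71e-06 and 0.00561 in MIA PaCa-2 and 3.3e-04 and 0.041 in PANC-1. The PANC-1 call with 3A4 was lost whichever library of the compared groups was left out. Genes named as copies of MAP1LC3B held counts equal to 7.08% of its own.

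WIPI1 binds the phosphoinositide of the early autophagosome (chr17:68420948-68457513, minus strand, GRCh38). It had 168.2, 164.9 and 182.6 CPM in MIA PaCa-2 with 1E5, against 19.5, 16.8 and 18.9 CPM with DMSO (log2 fold change 3.23, SE 0.14, adjusted p = 5.99e-08, edgeR). In PANC-1 the same ligand gave 32.5, 26.4 and 30.2 CPM, against 20.8, 24.2 and 17.7 CPM with DMSO (log2 fold change 0.51, SE 0.15, adjusted p = 0.0207, edgeR). With 3A4, WIPI1 fell in PANC-1 to 12.8, 15.8 and 13.5 CPM (log2 fold change -0.58, adjusted p = 0.0447, edgeR) and had 22.7, 20.2 and 22.2 CPM in MIA PaCa-2.

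**Figure D2:**
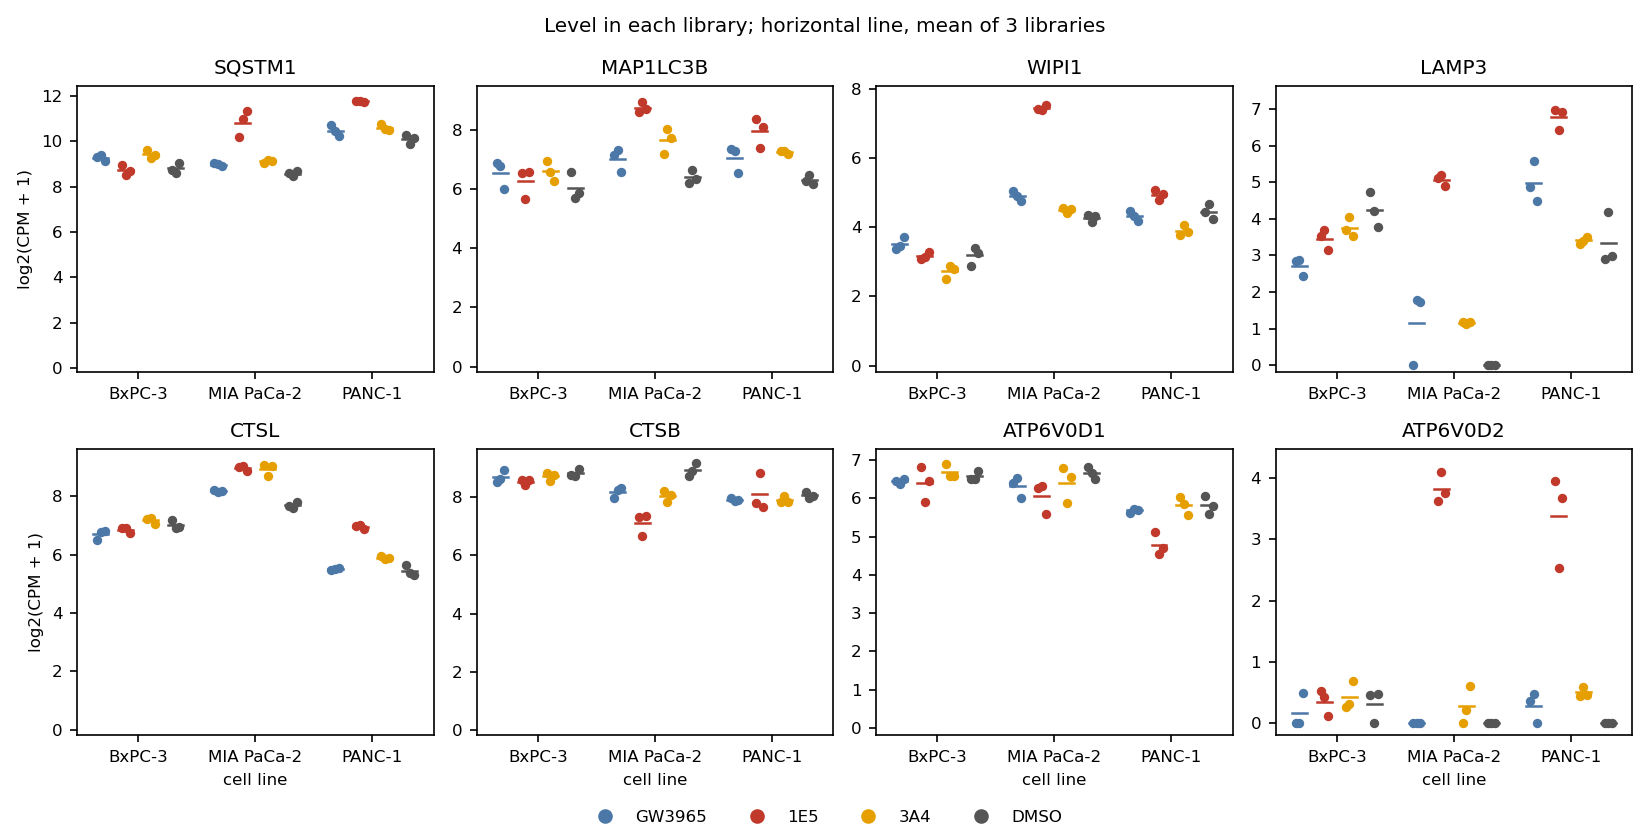
Level of 8 members in every library, as log2(CPM + 1), by line; within each line the groups run GW3965, 1E5, 3A4 and DMSO, and each point is 1 library. The 1E5 libraries of SQSTM1, MAP1LC3B, WIPI1, LAMP3 and ATP6V0D2 lie above the DMSO libraries in MIA PaCa-2 and PANC-1, and CTSB lies below in MIA PaCa-2.

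ULK1, the kinase that starts autophagy, rose with 1E5 in PANC-1 to 206.1, 252.4 and 196.1 CPM, against 78.2, 110.3 and 82.4 CPM with DMSO (log2 fold change 1.27, SE 0.16, adjusted p = 1.05e-04, edgeR). In MIA PaCa-2 it had 27.7, 34.7 and 42.8 CPM with 1E5, against 28.2, 28.8 and 29.6 CPM with DMSO, and was not called. NBR1, a further cargo receptor, rose in MIA PaCa-2 (log2 fold change 0.50, SE 0.12) and in PANC-1 (0.78, SE 0.11). ATG7, the enzyme that activates LC3 for its lipid link, rose with 1E5 in MIA PaCa-2 to 35.99, 33.7 and 32.6 CPM and with 3A4 to 31.0, 25.3 and 26.6 CPM, against 18.0, 17.9 and 14.8 CPM with DMSO (log2 fold changes 1.00 and 0.70). In PANC-1, ATG7 had 31.2, 30.0 and 38.8 CPM with 1E5 and 41.2, 43.0 and 38.1 CPM with 3A4, against 27.4, 26.1 and 25.1 CPM with DMSO (0.35 and 0.64). ATG5, part of the complex that attaches LC3 to lipid, rose by 0.62 in MIA PaCa-2 and by 0.29 in PANC-1 on the log2 scale with 1E5; the PANC-1 calls of ATG5 and ATG7 were kept in 6 of 14 refits each.

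ATG16L1, which directs that complex to the membrane, was called higher with 3A4 in both lines and with 1E5 in neither. It had 69.6, 69.4 and 73.0 CPM with 3A4 in MIA PaCa-2, against 56.2, 54.3 and 47.3 CPM with DMSO (log2 fold change 0.42), and 86.8, 87.0 and 88.6 CPM in PANC-1, against 61.3, 58.6 and 72.2 CPM with DMSO (0.45). Its log2 fold changes with 1E5 were also positive, at 0.14 for MIA PaCa-2 and 0.27 for PANC-1. The level with 3A4 was not called different from that with 1E5 in either line. When single libraries were left out, the MIA PaCa-2 call with 3A4 was kept only without 3A4 replicate 1. The PANC-1 call was kept only without DMSO replicate 3. BECN1, of the lipid kinase complex that marks the site of autophagosome formation, was called with no ligand. GABARAPL1, a relative of LC3, was called nowhere and varied widely within groups. It had 18.2, 127.4 and 19.0 CPM in PANC-1 with 1E5, against 28.7, 38.4 and 9.32 CPM with DMSO, and 46.9, 61.5 and 10.3 CPM in BxPC-3 with 1E5, against 15.04, 22.2 and 57.0 CPM with DMSO.

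The 3A4 counts depended on single libraries. In MIA PaCa-2 the count of 10 fell to 3 without 3A4 replicate 2, 4 without DMSO replicate 3, 5 without DMSO replicate 1 and likewise 5 without DMSO replicate 2, and 6 without 3A4 replicate 3. CTSL, CTSZ and MAP1LC3B were called in all 15 refits. In PANC-1 the count of 8 fell to 0 without 3A4 replicate 1 and without DMSO replicate 2, to 1 without 3A4 replicate 2 and without 3A4 replicate 3, and to 2 without DMSO replicate 1 and without DMSO replicate 3; none of the 8 was called in all refits. The 1E5 counts moved less, to 21 to 24 in MIA PaCa-2 when any library was left out, and in PANC-1 to 28 without 1E5 replicate 2 and 15 without DMSO replicate 3. Without 1E5 replicate 2, the call of HEXA was lost and 7 members gained one: LAMP2, CTSA, CTSB, CTSZ, ATP6V0A1 and ATP6V1A were then lower, by log2 fold changes of -0.56 to -0.28, and ATG16L1 was higher (0.32). Without DMSO replicate 3, the calls of MCOLN1, HEXA, NEU1, ATP6V0A2, WIPI1, WIPI2, ATG5 and ATG7 were lost and that of ATG16L1 was gained (0.36). CTSD gained a call in PANC-1 without 1E5 replicate 3 (0.54), TFEB in MIA PaCa-2 without 1E5 replicate 3 (-1.51) and LAMP1 in MIA PaCa-2 without DMSO replicate 3 (-0.48). Of the members called with 1E5, 20 of the MIA PaCa-2 members and 13 of the PANC-1 members were called in all 14 refits, while the MIA PaCa-2 calls of ATP6V0A1, ATP6V0B, ATP6V0E1 and ATG9A were kept in 8 of 14 each and that of ATP6V1G1 in 10, and the PANC-1 calls of WIPI1 and WIPI2 in 9 of 14 each, ATP6V0A2 in 10 and MCOLN1 in 11.

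Taking both lines, 11 members rose with 1E5 in each of MIA PaCa-2 and PANC-1, 2 fell in both and 3 went opposite ways. These are 24.4%, 4.44% and 6.67% of the 45, against 8.56%, 8.16% and 5.47% of the 15447 genes tested in both lines. The members were chosen with earlier results of these data known, so these shares are no test of the list. Those that rose in both were LAMP3, CTSL, HEXA, ATP6V0A2, ATP6V0D2, SQSTM1, MAP1LC3B, WIPI1, ATG5, ATG7 and NBR1, of which CTSL, LAMP3, ATP6V0D2, SQSTM1, MAP1LC3B and NBR1 were called in all refits of both lines; MCOLN1 and ATP6V0E1 fell in both. The members called with 1E5 in neither line were LAMP1, CD63, TFEB, CTSD, GLA, ATP6V0C, ATP6V1A, ATP6V1D, ATP6V1H, GABARAPL1, BECN1 and ATG16L1. With 3A4, 4 members (CTSL, MAP1LC3B, ATG7 and ATG16L1) rose in both lines, 8.89% of the members, against 1.36% of all genes. None of these 4 was called in all refits of PANC-1. How 9 promoters with CACGTG compared with the 26 without was looked at for 1E5. In MIA PaCa-2, 1 rose and 3 fell of the 9 (median log2 fold change -0.35) and 12 rose and 3 fell of the 26 (0.28), where 23.6% of all genes rose and 23.4% fell (median 0.05). In PANC-1, 1 rose and 3 fell of the 9 (-0.15) and 13 rose and 0 fell of the 26 (0.40), where 19.7% of all genes rose and 19.3% fell (median 0.02). The 10 members named above with no promoter in the table are outside both counts. All 12 autophagy factors were among the 26 without CACGTG, so a difference by motif cannot be told apart from one by class. These counts are a description, with no test.

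Whether the response to a ligand differed among the lines was tested as an interaction of ligand and line. With 1E5 it differed for 27 of 45 members (38.5% of all 22132 genes tested), with 3A4 for 4 (5.89%) and with GW3965 for 2 (0.104%). The smallest adjusted p-values with 1E5 were those of WIPI1 (3.53e-11), CTSL (2.23e-09), LAMP3 (7.33e-09) and SQSTM1 (8.8e-08), all in edgeR. With 3A4 the 4 were CTSL (4.01e-05), LAMP2 (0.00807), WIPI1 (0.0123) and LAMP3 (0.0134). With GW3965 they were LAMP3 (7.3e-04) and CTSL (0.0259), the second lost in 8 of 24 refits.

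The difference between MIA PaCa-2 and PANC-1 in the 1E5 response was tested on its own, a comparison added after the data were seen. It passed for 20 of 45 members, 13 higher and 7 lower in MIA PaCa-2 minus PANC-1 (28.4% of all genes, 16.3% higher and 12.1% lower). WIPI1 had the largest difference among the members with counts in all groups, 2.82 on the log2 scale (SE 0.22, adjusted p = 6.71e-10, edgeR). LAMP2 differed by 1.48, ATP6V1C1 by 1.61, GUSB by -1.62, CTSB by -1.83, ATP6V0B by -1.02 and ULK1 by -0.89. For CTSL the difference was -0.14, with a 95% interval of -0.44 to 0.16. For MAP1LC3B it was 0.76 (adjusted p = 0.19, edgeR).

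**Figure D3:**
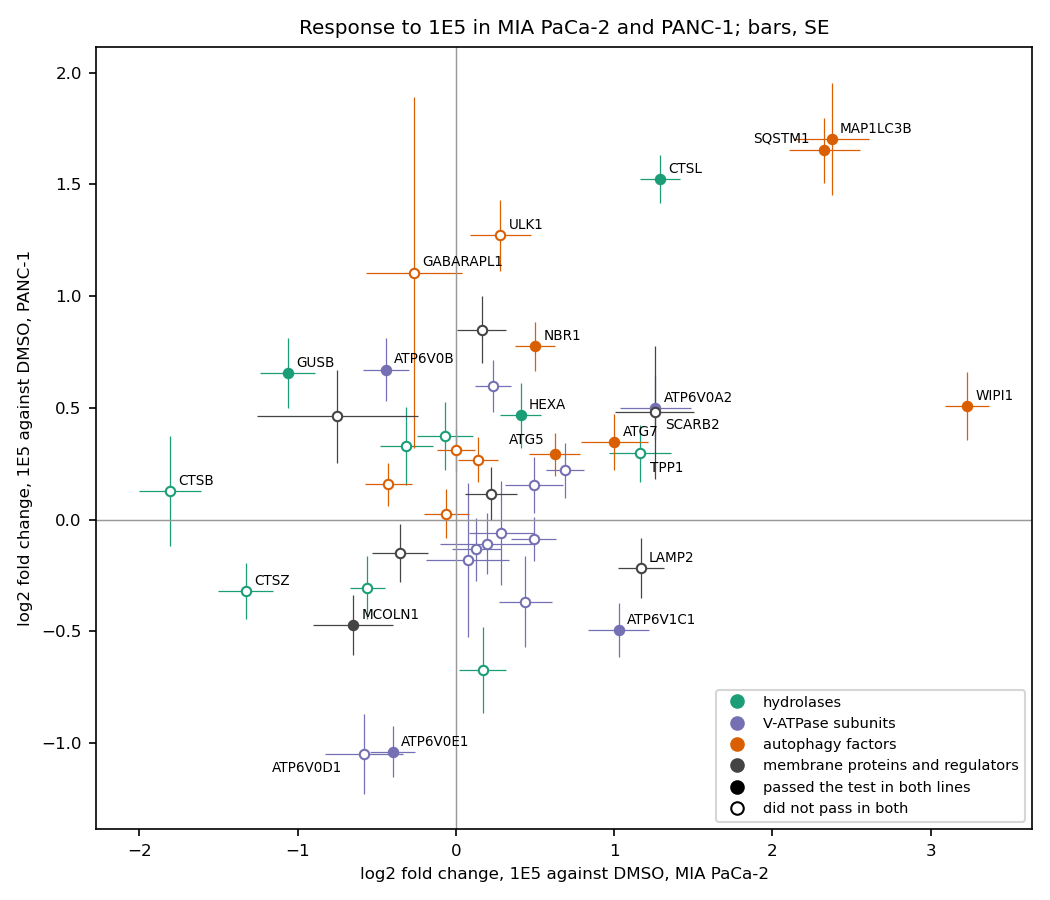
Log2 fold change with 1E5 against DMSO in MIA PaCa-2 (x axis) and in PANC-1 (y axis) for each member, with bars of 1 standard error; filled points passed the test in both lines. LAMP3 and ATP6V0D2, at 0 in a DMSO group, are left out; SQSTM1, MAP1LC3B and CTSL are high on both axes, WIPI1 lies far to the right (3.23 and 0.51), and GUSB, ATP6V0B and ATP6V1C1 lie on opposite sides of 0.

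The 2 inverse agonists, given at the same dose and time, were then set against each other in the 3 lines. The level with 3A4 differed from that with 1E5 for 15 of 45 members in MIA PaCa-2 (2 higher, 13 lower; 32.4% of all genes passed, 17.2% higher and 15.1% lower), for 23 of 45 in PANC-1 (5 higher, 18 lower; 37.3% passed, 18.5% higher and 18.8% lower) and for 0 of 44 in BxPC-3 (0.144% passed). In BxPC-3 edgeR gave 8 of 44 members at an unadjusted p under 0.05 (18.2%, against 13.8% of all genes), DESeq2 called 3 and limma-voom 0, and the 95% interval lay within -1 and 1 on the log2 scale for 41 of 44. SQSTM1 stood at 778.7, 608.8 and 680.9 CPM with 3A4 in BxPC-3, against 489.4, 368.9 and 411.8 CPM with 1E5; its log2 difference of 0.70 had a 95% interval of 0.38 to 1.02 and missed the threshold (adjusted p = 0.115, edgeR).

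WIPI1 was lower with 3A4 than with 1E5 in MIA PaCa-2 by 2.99 on the log2 scale and in PANC-1 by 1.08. SQSTM1 averaged 555 ± 32.5 CPM with 3A4 and 1907 ± 704 CPM with 1E5 in MIA PaCa-2, and 1555 ± 148 CPM with 3A4 and 3459 ± 97.7 CPM with 1E5 in PANC-1 (SD, n = 3 each; log2 differences -1.78 and -1.15, adjusted p = 7.55e-05 and 1.16e-04, edgeR). LAMP3 was lower with 3A4, with log2 differences of -4.73 for MIA PaCa-2 and -3.52 for PANC-1. MAP1LC3B, which rose with both ligands, was lower with 3A4 than with 1E5 in MIA PaCa-2 (log2 difference -1.08, adjusted p = 0.00287, edgeR) and in PANC-1 (-0.75, adjusted p = 0.0319, edgeR), the second in 7 of 14 refits.

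TFEB passed the test in this comparison in PANC-1, at 5.39 ± 0.850 CPM with 3A4 and 11.8 ± 3.19 CPM with 1E5 (log2 difference -1.12, adjusted p = 0.00173, edgeR). In the same line ULK1 (-1.65), CTSD (-0.84), TPP1 (-0.84) and NBR1 (-0.90) were lower with 3A4, and ATP6V0E1 (1.10), ATP6V0D1 (1.05) and MCOLN1 (0.93) were higher. In MIA PaCa-2, CTSB (0.91) and CTSA (0.41) were the members higher with 3A4. The level of CTSL in MIA PaCa-2 differed by -0.04, with a 95% interval of -0.30 to 0.23, while in PANC-1 it was lower with 3A4 (-1.07, adjusted p = 2.65e-05, edgeR).

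The lines also differed without a ligand. With DMSO alone, 31 of 45 members differed between BxPC-3 and PANC-1 (14 higher, 17 lower in BxPC-3, where 52.5% of all genes passed, 27.1% higher and 25.5% lower), 26 between BxPC-3 and MIA PaCa-2 (19 higher, 7 lower in BxPC-3, where 57.4% passed, 32.7% higher and 24.6% lower) and 32 between MIA PaCa-2 and PANC-1 (12 higher, 20 lower in MIA PaCa-2, where 51.2% passed, 21.7% higher and 29.5% lower). These levels are CPM on a scale common to the lines. CTSD had 602.7, 878.4 and 459.2 CPM in BxPC-3, 356.6, 343.4 and 378.2 in MIA PaCa-2, and 1640, 1641 and 1636 in PANC-1. PANC-1 was the highest line by far, and BxPC-3 and MIA PaCa-2 did not overlap.

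CTSL ran the other way, at 138 ± 13.6 CPM in BxPC-3, 194 ± 7.35 CPM for MIA PaCa-2 and 41.3 ± 5.42 CPM for PANC-1 (SD, n = 3 each; log2 difference of MIA PaCa-2 against PANC-1 2.24, adjusted p = 6.78e-16, edgeR). LAMP2 had 319 ± 20.1, 107 ± 8.08 and 522 ± 40.2 CPM for BxPC-3, then MIA PaCa-2, then PANC-1. SQSTM1 had 481 ± 81.5, 358 ± 17.6 and 1058 ± 149 CPM in the same order, and the difference between BxPC-3 and MIA PaCa-2 was kept in 7 of 12 refits. ULK1 had 28.6 ± 3.54, 27.2 ± 0.729 and 86.9 ± 17.3 CPM, and BxPC-3 and MIA PaCa-2 did not differ beyond their spread (log2 difference 0.07, adjusted p = 0.777, edgeR).

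MIA PaCa-2 held the lowest levels of several V-ATPase subunits. ATP6V1A, the catalytic subunit, had 129 ± 13.5 CPM in BxPC-3, 34.9 ± 11.1 CPM for MIA PaCa-2 and 117 ± 9.07 CPM for PANC-1, and ATP6V0A2 had 42.0 ± 4.24, 14.3 ± 3.35 and 34.0 ± 2.69. For both genes BxPC-3 and PANC-1 did not differ beyond their spread. Of the 15 subunits, 9 were higher and 0 lower in BxPC-3 than in MIA PaCa-2, where 32.7% of all genes were higher and 24.6% lower. Against PANC-1 the subunits went both ways, with 4 higher in MIA PaCa-2 (ATP6V0B, ATP6V0D1, ATP6V1B2 and ATP6V1F) and 6 lower. Of all genes, 21.7% were higher and 29.5% lower in that comparison. LAMP3 had 27.2, 18.8 and 13.8 CPM in BxPC-3, 0 counts in all 3 MIA PaCa-2 libraries, and 6.14, 16.6 and 6.60 CPM in PANC-1. MAP1LC3B was called in no pair of lines.

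**Figure D4:**
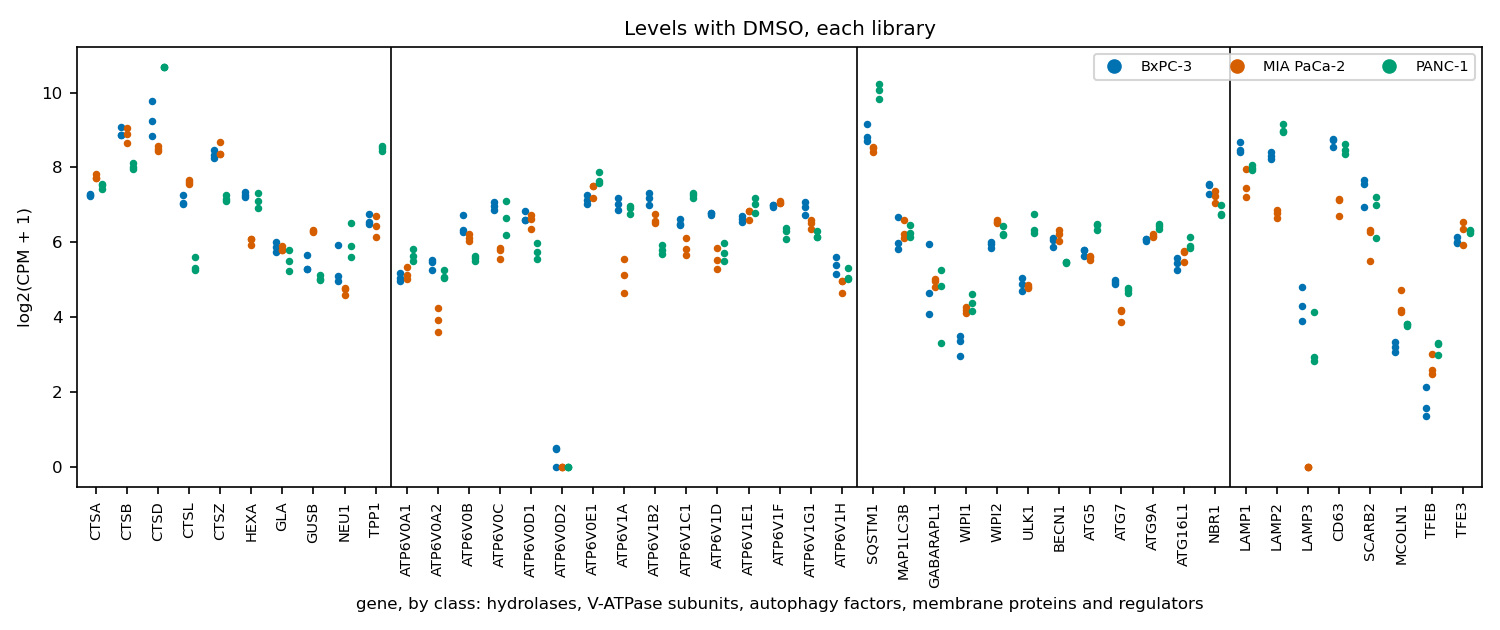
Level of each member (x axis, by role) with DMSO alone, as log2(CPM + 1) on a scale common to the lines (y axis); each point is 1 library, coloured by line. CTSD, LAMP2, TPP1 and SQSTM1 are highest in PANC-1, CTSL is lowest there, and LAMP3 is at 0 in MIA PaCa-2.

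Further genes of the same pathways, 121 in all and also chosen with earlier results of these data known, were counted by the same test. With 1E5, 40 of 116 tested rose and 20 fell in MIA PaCa-2, where 23.6% of all genes rose and 23.4% fell, and 28 of 118 rose and 19 fell in PANC-1, where 19.7% rose and 19.3% fell. In MIA PaCa-2, of 41 further autophagy genes 20 rose and 2 fell (median log2 fold change 0.40), of 32 membrane proteins and regulators 12 rose and 6 fell (0.30), of 35 hydrolases 8 rose and 8 fell (-0.23), and of 8 V-ATPase subunits 0 rose and 4 fell (-1.17). In PANC-1 the counts were 12 and 4 of 41 (0.25), 6 and 6 of 32 (-0.11), 10 and 8 of 37 (-0.01) and 0 and 1 of 8 (-0.07) in the same order.

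In MIA PaCa-2, STX17, the SNARE of the autophagosome that takes part in its fusion with the lysosome, had 25.1 ± 8.86 CPM with 1E5, against 6.49 ± 0.716 with DMSO, and TAX1BP1, a cargo receptor, 325 ± 42.0 CPM, against 106 ± 12.4 (SD, n = 3 each). RB1CC1, of the ULK1 complex, had 214 ± 3.74 CPM with 1E5, against 70.9 ± 9.09 with DMSO. MITF, a transcription factor related to TFEB, rose to 4.18 ± 1.22 CPM with 1E5, against 0.532 ± 0.486 with DMSO. LIPA, the lysosomal acid lipase, fell to 174 ± 19.99 CPM with 1E5, against 557 ± 64.9 with DMSO, and LAPTM4B, a lysosomal membrane protein, fell to 41.8 ± 2.20 CPM, against 190 ± 13.6. The 4 further V-ATPase subunits that fell were TCIRG1, an isoform of subunit a known from osteoclasts, at 14.4 ± 4.02 CPM with 1E5, against 47.3 ± 12.1 with DMSO, ATP6V0E2 (log2 fold change -1.62), ATP6V1G2 (-1.71) and the accessory subunit ATP6AP1 (-0.42). ATP6V1G2 was very low, at 0.652 ± 0.102 CPM with 1E5, against 2.14 ± 1.21 with DMSO, and its call was kept in 8 of 13 refits.

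In PANC-1, WDR45, a relative of WIPI1, rose to 64.3 ± 2.51 CPM with 1E5, against 24.4 ± 1.57 with DMSO, and VAMP8, the SNARE of late endosomes and lysosomes that pairs with STX17, fell to 30.0 ± 2.33 CPM, against 72.7 ± 4.26. GAA, the lysosomal alpha-glucosidase, rose to 93.9 ± 29.8 CPM with 1E5, against 36.7 ± 1.65 with DMSO, and PSAP, the saposin precursor, rose to 8591 ± 3475 CPM, against 4129 ± 759. FNIP2, a partner of folliculin, fell to 16.6 ± 3.10 CPM with 1E5, against 37.2 ± 3.09 with DMSO, and NPC1, the cholesterol exporter of the lysosome, rose to 246 ± 16.9 CPM, against 139 ± 6.25.

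With 3A4, 11 of 116 further genes rose and 15 fell in MIA PaCa-2, where 7.3% of all genes rose and 6.45% fell, and 7 of 118 rose and 12 fell in PANC-1, where 3.53% rose and 3.84% fell. With GW3965, 2 of 117 rose in BxPC-3, where 1.32% of all genes passed, and 0 changed in the other lines. The 2 were ULK2, a relative of ULK1, and TPCN1, a lysosomal ion channel, called in 5 and 7 of 14 refits.

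Overlapping and copied genes limit some values. Of the 45 members, 29 overlap another annotated gene, 13 on the same strand and 22 on the opposite one. By gene name, 10 have copies or pseudogenes, whose likeness in sequence was not measured. How the authors' counting treated strand and shared reads is not given in the sources used here. Partners on the opposite strand held 362% of the member's own counts for ATP6V1D, 192% for BECN1, 188% for ATG7, 72.7% for CTSA and 43.1% for GLA, and at most 23.8% for the other members.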

How the data were processed

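Strand-specific libraries of total RNA were sequenced from 36 samples. The authors deposited 1 table of gene counts, raw and unnormalized, with whole numbers per Ensembl gene. Trim Galore 0.4.4, HISAT2 2.0.2, SAMtools 1.3, StringTie 1.3.1c and GRCh38/hg38 are named, per the submitters' processing notes. Their settings, the annotation and the treatment of strand and multi-mapped reads were not given in the sources used here. Of 58658 lines, 407 naming transcripts and 8 others were removed (at most 0.00396% of a library's counts), leaving 58243 genes, of which 57532 matched a symbol.

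Each line was fitted on its 12 libraries with edgeR 4.0.16 in R 4.3.3 (TMM scaling, filterByExpr with a minimum count of 10 and total of 15, quasi-likelihood F-test, Benjamini-Hochberg over 18042 genes for BxPC-3, 16254 for MIA PaCa-2 and 18544 for PANC-1). Interactions and line differences used all 36 libraries (22132 genes). The threshold was an adjusted p of 0.05. CPM are TMM-scaled counts per 1e+06, and the standard error is the absolute log2 fold change over the square root of F. Where a group had no count, the fold is a bound against 3 counts over that group; it covers counting error only. Alternatives were RLE scaling, no filter, DESeq2 1.42.0, limma-voom (limma 3.58.1), a replicate block, the compared groups only, all libraries in 1 fit, thinned counts, each library left out in turn and, chosen after the data were seen, the MIA PaCa-2 and PANC-1 fits without the 1E5 libraries. No pair of replicates agreed within sampling noise (chi-square per degree of freedom 8.62 to 155).

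Gene positions are from GENCODE and promoters from RefSeq (GRCh38.p14), 250 bases before the start. The 45 members and all lists were chosen with earlier results of these data known. Levels by library are given for members fixed by name and for up to 3 called members per class and comparison with the largest change. Those named of the 121 further genes are among the 3 called genes with the largest change in their class and comparison, except ATP6AP1 in MIA PaCa-2, named to complete a count of 4.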

Additional observations from a re-analysis of the deposited data

Results flagged for a closer look

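The response to a ligand, set against DMSO, differed among the 3 lines for the genes below by the interaction test of edgeR, adjusted over all 22132 genes tested; the adjusted p stands in brackets after each gene.

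With GW3965 the genes were LAMP3 (7.3e-04) and CTSL (0.0259). With 3A4 they were LAMP2 (0.00807), LAMP3 (0.0134), CTSL (4.01e-05) and WIPI1 (0.0123).

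With 1E5 the difference among the lines passed for 27 members. Among the membrane proteins and regulators, these were LAMP2 (4.8e-07), LAMP3 (7.33e-09), SCARB2 (0.026) and TFE3 (0.00288). Among the hydrolases, these were CTSB (2.09e-05), CTSL (2.23e-09), CTSZ (1.44e-04), HEXA (0.00485), GUSB (1.22e-05) and TPP1 (4.6e-04). Among the V-ATPase subunits, these were ATP6V0A1 (0.0165), ATP6V0A2 (7.73e-04), ATP6V0B (7.3e-04), ATP6V0D2 (1.84e-04), ATP6V0E1 (4.87e-05), ATP6V1B2 (0.00162), ATP6V1C1 (6.5e-06), ATP6V1E1 (0.00873) and ATP6V1F (0.00399). Among the autophagy factors, these were SQSTM1 (8.8e-08), MAP1LC3B (4.18e-04), WIPI1 (3.53e-11), WIPI2 (0.0259), ULK1 (1.46e-04), ATG5 (0.00698), ATG7 (3.17e-04) and NBR1 (6.42e-04).

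The 1E5 response differed between MIA PaCa-2 and PANC-1 for 20 members, in a comparison added after the data were seen. Among the membrane proteins and regulators the genes were LAMP2 (7.19e-07), LAMP3 (9.5e-05) and TFE3 (0.0302). Among the hydrolases the genes were CTSB (1.77e-05), CTSZ (8.24e-04), GUSB (8.2e-06), NEU1 (0.0336) and TPP1 (0.00217). Among the V-ATPase subunits the genes were ATP6V0A1 (0.011), ATP6V0A2 (0.0148), ATP6V0B (3.44e-04), ATP6V0E1 (0.00148), ATP6V1B2 (0.00328), ATP6V1C1 (4.05e-06) and ATP6V1E1 (0.0181). Among the autophagy factors the genes were SQSTM1 (0.0236), WIPI1 (6.71e-10), ULK1 (0.00613), ATG7 (0.0141) and ATG9A (0.0335).

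BxPC-3 was grown in another medium than the other lines, so that a difference that involves it cannot be told apart from one of medium.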

How the results depend on the processing

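In the 7 comparisons within a line that had calls, the 106 calls were refitted 1500 times in all; 1283 were kept, 217 lost and 0 changed sign, and 66 calls were kept in every refit.

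The count of members called moved by over 1.5 times in these cases. With GW3965 in BxPC-3 it was 2 in DESeq2 and 0 with the compared groups only, against 1. With 3A4 in BxPC-3 it was 1 in DESeq2, against 0. For 3A4 against 1E5 in BxPC-3 it was 3 in DESeq2, against 0. With GW3965 in MIA PaCa-2 it was 1 with RLE scaling, 1 with no filter, 4 in DESeq2 and 3 with all 36 libraries in 1 fit, against 0. With GW3965 in PANC-1 it was 1 in DESeq2, against 0. With 3A4 in MIA PaCa-2 it was 6 without the 1E5 libraries, against 10. With 1E5 in PANC-1 it was 13 with the compared groups only, against 22. With 3A4 in PANC-1 it was 3 with no filter, 15 in DESeq2, 13 with the compared groups only and 15 without the 1E5 libraries, against 8. For the interaction with GW3965 it was 1 with no filter and 0 with the compared groups only, against 2, and with 3A4 it was 9 in DESeq2, against 4. The cause was not tested.

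With each library left out in turn, the count ranged from 0 to 1 with GW3965 in each of the 3 lines, and was 0 throughout with 1E5, with 3A4 and for 3A4 against 1E5 in BxPC-3. It ranged from 21 to 24 with 1E5, 3 to 8 with 3A4 and 12 to 18 for 3A4 against 1E5 in MIA PaCa-2, and from 15 to 28, 0 to 2 and 19 to 25 for the same comparisons in PANC-1. For the interactions it ranged from 1 to 2 with GW3965, 26 to 29 with 1E5 and 3 to 5 with 3A4. For the lines with DMSO it ranged from 28 to 31 (BxPC-3 against PANC-1), 23 to 27 (BxPC-3 against MIA PaCa-2) and 29 to 32 (MIA PaCa-2 against PANC-1), and for the 1E5 response in MIA PaCa-2 minus PANC-1 from 17 to 21.

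Same-numbered libraries were at most weakly correlated, and the main fit did not use the replicate numbers as pairs. Whether they mark a shared batch was not tested. Correlations of same-numbered libraries ran from -0.0624 to 0.229, in 0 of 12 comparisons was every pair above 0.1, and in 6 of 12 every library correlated best with its own number. With the replicate number as a block, the count was 1 for 3A4 against 1E5 in BxPC-3 and 7 for the 3A4 interaction; with the block, 26 members were called with 1E5 in MIA PaCa-2, 25 in PANC-1, 11 with 3A4 in MIA PaCa-2 and 10 with 3A4 in PANC-1.

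Depth was lowest in MIA PaCa-2, where the smallest library held 2701393 counts and the median standard error with 1E5 was 0.17, against 0.14 in PANC-1 and in BxPC-3.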
